A study of Mus musculus with 6 samples.

Results

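Serpins are a family of folded proteins most of which inhibit proteases as suicide substrates. The target protease cuts an exposed reactive centre loop, the loop inserts into the body of the serpin, and the protease stays trapped on it. Some members no longer inhibit proteases: Serpinh1 (HSP47) is a collagen chaperone of the endoplasmic reticulum, and Serpinf1 (PEDF) is a secreted factor that acts on vessels and on cell survival. In heart tissue, secreted serpins limit plasminogen activators, thrombin and complement outside cells, while clade B serpins stay mostly inside cells and guard against leaked granule and lysosomal proteases.

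The 8 genes described here are Serpinb1c, Serpinb1a, Serpinb6a, Serpine2, Serpina3n, Serping1, Serpinf1 and Serpinh1. They were chosen from the results of this same comparison, as serpins expressed in heart around Serpinb1c, which was among the largest rises. All 8 were found among 54532 rows, 68 of which carry a gene name of the serpin family, and all 8 had a mean of at least 1 FPKM (fragments scaled by gene length and sequencing depth). Since the comparison chose them, their values are a description, and the p-values given for genes other than Serpinb1c are rows of a fit over all genes and no independent evidence.

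RNA came from whole hearts of mice aged 15 days, in 2 groups of 3 biological replicates. CKO hearts are labelled Nat10-CKO, a knockout of Nat10 restricted to cardiomyocytes, and flox hearts are labelled Nat10flox/flox. Nat10 encodes an RNA acetyltransferase. The Cre line that made the knockout, and whether flox mice carry Cre, are not given in the sources used here, and non-cardiomyocyte cells of a CKO heart keep the gene by design.

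The Serpinb1 genes are close paralogs, and their sequences bear on whether reads of Serpinb1c could be reads of another copy. The coding sequences of Serpinb1a and Serpinb1c were 89.7% identical in bases, and their predicted proteins 83.5% identical in residues. No stretch of 100 bases in any annotated Serpinb1a or Serpinb1c transcript occurred in a transcript of another gene. The 45 coding bases that span the hinge of the reactive centre loop are shown 5′ to 3′ (GENCODE M21 transcripts of GRCm38, genes on chromosome 13), because this is the region through which a serpin moves when a protease cuts it. Capitals mark the positions that are not the same in all 3 paralogs.
Serpinb1a: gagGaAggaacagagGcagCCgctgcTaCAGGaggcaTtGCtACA
Serpinb1b: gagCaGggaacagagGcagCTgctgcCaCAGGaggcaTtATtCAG
Serpinb1c: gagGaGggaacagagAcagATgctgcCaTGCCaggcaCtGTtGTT
Serpinb1c differed from Serpinb1a at 14 of these 45 bases and at 7 of the 15 residues they encode. Serpinb1b differed from Serpinb1a at 9 bases and 3 residues.

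RefSeq gives Serpinb1c a pair of start sites on the minus strand of chromosome 13 in GRCm38.p6, at 32898140 and 32940600. The 300 bases around each are shown because a transcribed fragment described below lies between them. The nearer window is chr13:32898091-32898390 and the farther one is chr13:32940551-32940850, both read 5′ to 3′ on the minus strand with 250 bases before the start. Capitals mark a TATA motif (TATAAA).
Serpinb1c, near start: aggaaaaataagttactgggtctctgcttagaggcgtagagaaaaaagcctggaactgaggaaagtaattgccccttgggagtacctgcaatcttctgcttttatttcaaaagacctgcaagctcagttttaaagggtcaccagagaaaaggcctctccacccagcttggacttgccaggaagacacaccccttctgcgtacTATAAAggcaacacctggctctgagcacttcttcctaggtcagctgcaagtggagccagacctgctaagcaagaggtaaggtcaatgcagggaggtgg
Serpinb1c, far start: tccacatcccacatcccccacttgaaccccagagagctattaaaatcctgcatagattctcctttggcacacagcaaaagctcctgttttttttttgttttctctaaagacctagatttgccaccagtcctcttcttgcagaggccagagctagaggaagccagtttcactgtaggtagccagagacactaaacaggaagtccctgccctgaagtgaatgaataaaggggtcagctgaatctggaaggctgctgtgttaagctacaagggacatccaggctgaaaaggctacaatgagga
In the near window TATAAA began 48 bases before the start, and the far window held no match on either strand. TATAAA occurred in 13.6% of 32851 RefSeq promoter windows of this length. Neither window held the STAT motif TTCNNNGAA, found in 8.30% of windows, or the AP-1 motif TGANTCA, found in 7.81%. A match is only a description of letters, not a site.

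Recovered read counts ran from 15048038 to 16280061 per heart. Nat10 itself stood at 3.69, 3.75 and 4.18 FPKM in CKO replicates 1, 2 and 3, against 3.87, 3.78 and 4.57 FPKM in flox replicates 1, 2 and 3, and was not called lower (log2 change −0.06 ± 0.12, SE, limma adjusted p = 0.768). A level over the whole gene in a whole heart therefore does not check the labels, and directions below are for hearts labelled CKO. All 12 cardiomyocyte markers were above 0 in each heart, with a summed level of 16036 to 17200 FPKM in CKO hearts and 21417 to 27072 FPKM in flox hearts. limma called 1761 of 12469 tested genes at an adjusted p under 0.05, which is 14.1% of them, with 6.93% called higher and 7.19% called lower.

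CKO replicate 1 stood apart. It had the highest value of all 6 hearts for each of the 8 serpins. Choosing the genes from this comparison favours such a peak in a CKO heart, and the share over all genes was not counted. Across genes, the correlation of CKO replicate 1 with each flox heart was 0.876 to 0.912, below the 0.922 to 0.959 of CKO replicates 2 and 3. Its 10 hepatocyte markers, which include a pair of serpins, summed to 47.3 FPKM, against 2.04 and 2.40 FPKM in CKO replicates 2 and 3 and 1.43 to 2.94 FPKM in flox hearts. Albumin was at 18.2 FPKM in CKO replicate 1 and at no more than 0.0511 FPKM in the other hearts. Changes of the 8 serpins, though not most others, are therefore given with and without CKO replicate 1. The part of this heart's liver transcripts in the serpin levels was not tested.

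Of the 8 serpins, 3 were called higher and none was called lower, beside the 6.93% and 7.19% over all tested genes. The called genes were Serpinb1c, Serpina3n and Serpine2, and 3 of 8 were also called without CKO replicate 1. Serpinb1c chose the set, and it and Serpina3n reached the tested level only through their CKO hearts, so their calls are no support. Without flox replicate 1, and likewise without flox replicate 2, 1 of 8 was called, and the calls over all genes dropped to 364 and 478. The groups did not overlap, with every CKO heart above every flox heart, for 5 of the 8, namely those 3 with Serpinb6a and Serpinh1. Over all tested genes that pattern held for 19.7%. The median log2 change was 0.73 for the 8 genes and −0.00 for all tested genes. Nothing is read from these counts, because the comparison chose the genes.

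**Figure D1:**
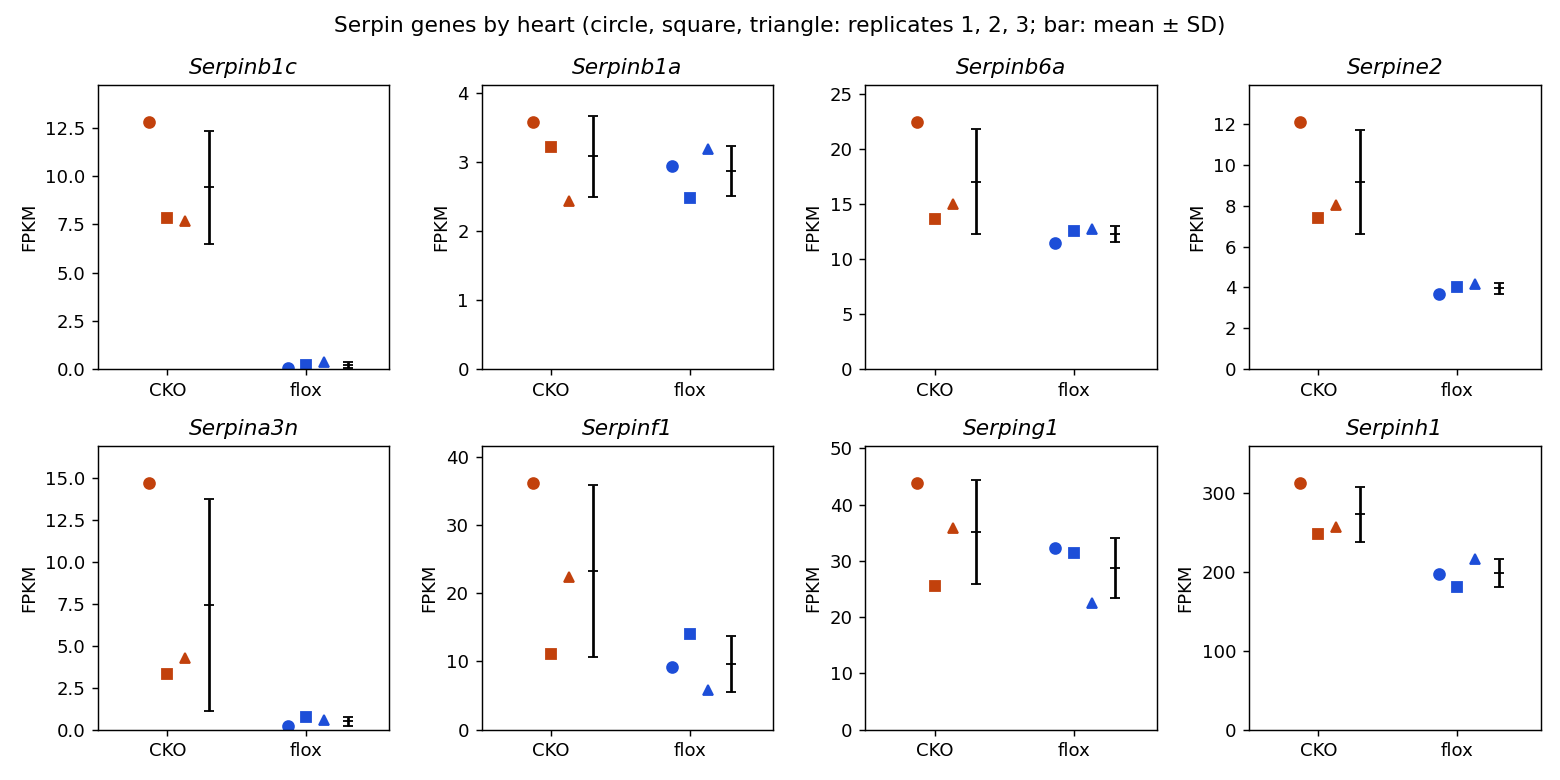
FPKM (vertical axes, linear, from 0) of the 8 serpin genes in each CKO heart (left) and flox heart (right); symbols are replicates 1, 2 and 3, and bars are the mean ± SD of 3 hearts. Serpinb1c lies at 7.66 FPKM or above in CKO hearts and at 0.367 FPKM or below in flox hearts, while Serpinb1a overlaps between the groups.

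Of the clade B serpins of the cell interior, Serpinb1c rose, while Serpinb1a and Serpinb6a were not called. Serpinb1c (ENSMUSG00000079049, chr13:32881434-32898211, minus strand, GRCm38) is a mouse paralog of the leukocyte elastase inhibitor Serpinb1. Its level was 12.8, 7.83 and 7.66 FPKM in CKO replicates 1, 2 and 3, against 0.0438, 0.201 and 0.367 FPKM in flox replicates 1, 2 and 3. Behind these stood 350, 210 and 198 reads in CKO hearts and 1, 5 and 10 reads in flox hearts. The gene was near the detection floor in flox hearts and was plainly measured in each CKO heart.

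The mean of Serpinb1c was 9.43 ± 2.93 FPKM in CKO hearts and 0.204 ± 0.161 FPKM in flox hearts (SD, n = 3 each), a 46.3-fold ratio. The lowest CKO heart was 20.9-fold above the highest flox heart. On the scale of log2(FPKM + 1), which understates changes of low genes, the change was 3.09 ± 0.21 (SE), the 8th largest rise of 12469 genes. Without CKO replicate 1 it was 2.87 ± 0.16, and the ratio of means was 38.0-fold. As the gene that chose the set, it is given no p-value. Only its CKO hearts brought it to the mean of 1 FPKM needed for the test.

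Serpinb1a (ENSMUSG00000044734, chr13:32842092-32851185, minus strand), the mouse counterpart of the human neutrophil elastase, cathepsin G and proteinase 3 inhibitor SERPINB1, lies beside it. Its level was 3.58, 3.22 and 2.44 FPKM in CKO hearts, against 2.95, 2.48 and 3.20 FPKM in flox hearts. The groups overlapped. The log2 change was 0.07 ± 0.15 (SE, limma adjusted p = 0.777), with a 95% interval from −0.28 to 0.42. It was −0.019 without CKO replicate 1, so no direction can be given.

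The balance of the paralogs thus differed between the groups. Serpinb1c made up 78.2%, 70.8% and 75.8% of the summed FPKM of Serpinb1a and Serpinb1c in CKO replicates 1, 2 and 3, against 1.46%, 7.50% and 10.3% in flox replicates 1, 2 and 3. FPKM is per length, so these shares compare transcript levels. The third paralog, Serpinb1b, had 0 reads in every heart, which allows up to 3 counts per heart.

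The neighbourhood of Serpinb1c held a further transcribed row, described here after its values were seen. Gm11382 (ENSMUSG00000074973, chr13:32938513-32938691, minus strand) is annotated as an unprocessed pseudogene of 179 bases and lies between the near and far RefSeq starts of Serpinb1c. It stood at 22.7, 19.7 and 16.6 FPKM in CKO hearts and at 0, 0 and 0.334 FPKM in flox hearts, from 68, 58 and 47 reads against 0, 0 and 1 read. None of its 80 windows of 100 bases occurred in a transcript of another gene. Whether its reads belong to a longer Serpinb1c transcript cannot be told from gene-level values. Across this stretch of chromosome 13, 5 of 10 rows had a mean of at least 1 FPKM, and they did not all move as Serpinb1c did.

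**Figure D2:**
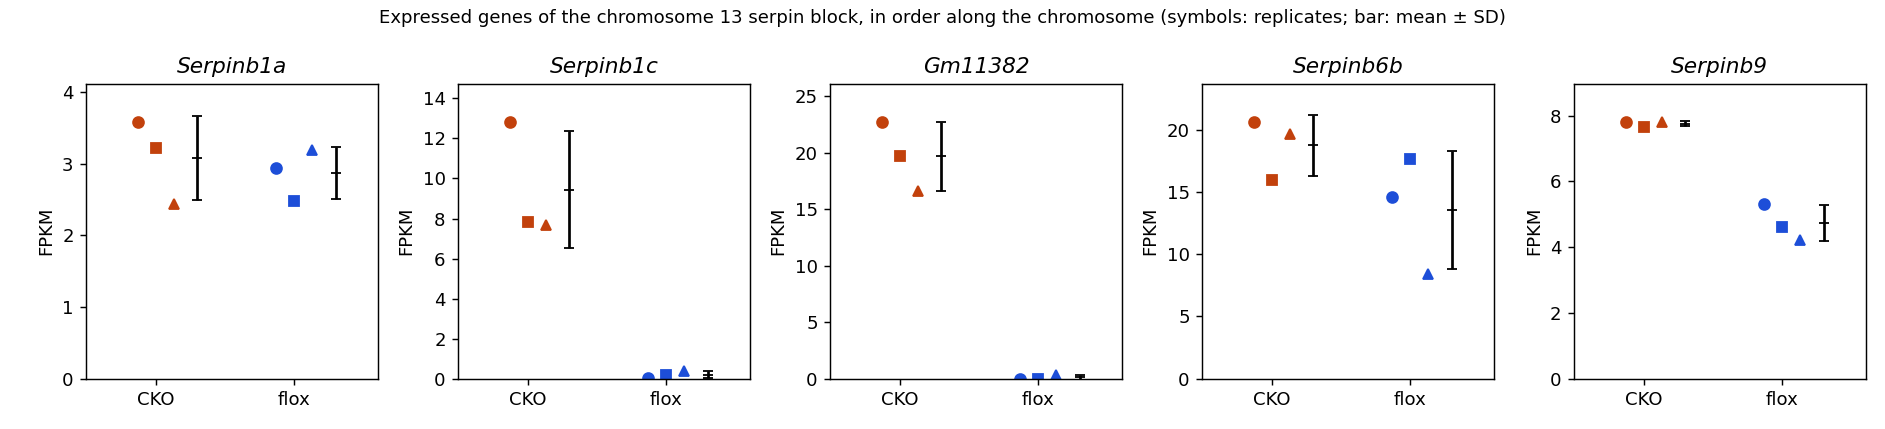
FPKM (vertical axes, linear, from 0) in CKO hearts (left) and flox hearts (right) of the 5 rows with a mean of at least 1 FPKM around Serpinb1c, in order along chromosome 13; symbols are replicates and bars the mean ± SD. Serpinb1c and the pseudogene Gm11382 separate the groups, Serpinb1a and Serpinb6b overlap, and Serpinb9 sits between 7.66 and 7.80 FPKM in CKO hearts and between 4.23 and 5.32 FPKM in flox hearts.

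The neutrophil, the cell best known for the proteases that Serpinb1 restrains, left little signal. Its 12 markers summed to 5.93 to 16.3 FPKM in CKO hearts and 4.67 to 9.41 FPKM in flox hearts, and the ranges overlapped. Of these markers, 2 reached a mean of 1 FPKM and neither was called; S100a9, a calcium-binding protein of neutrophil cytosol, averaged 5.00 ± 2.66 FPKM in CKO hearts and 3.61 ± 1.75 FPKM in flox hearts (SD, n = 3 each).

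Serpinb6a (ENSMUSG00000060147, chr13:33917918-34002794, minus strand) is an intracellular inhibitor of cathepsin G and related serine proteases. Its level was 22.5, 13.7 and 15.0 FPKM in CKO hearts, against 11.5, 12.6 and 12.8 FPKM in flox hearts. The groups did not overlap, but the gap between the lowest CKO heart and the highest flox heart was 1.07-fold. The log2 change of 0.41 ± 0.19 was not called (SE, limma adjusted p = 0.174), with an interval from −0.02 to 0.85, and was 0.21 ± 0.10 without CKO replicate 1. The gene overlaps Nqo2, Ripk1 and 1110046J04Rik on the opposite strand, and 19.9% of its 100-base windows occur in their transcripts, so its count may hold their reads. Its RefSeq promoter window at chr13:34002745-34003044 held 2 matches to TTCNNNGAA, and its window at chr13:33936034-33936333 held none. These matches too are only a description of letters.

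Of the secreted protease inhibitors, Serpine2 and Serpina3n rose and Serping1 was not called. Serpine2 (ENSMUSG00000026249, chr1:79794197-79861180, minus strand) encodes protease nexin-1, which inhibits thrombin and the plasminogen activators at cell surfaces. Its level was 12.1, 7.39 and 8.02 FPKM in CKO replicates 1, 2 and 3, against 3.67, 4.01 and 4.19 FPKM in flox replicates 1, 2 and 3. All CKO hearts lay above all flox hearts, and the flox hearts were close together.

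The mean of Serpine2 was 9.18 ± 2.56 FPKM in CKO hearts and 3.96 ± 0.267 FPKM in flox hearts (SD, n = 3 each), a 2.32-fold ratio. The log2 change was 1.01 ± 0.18 (SE, limma adjusted p = 0.0144), and 0.81 ± 0.10 without CKO replicate 1 (limma adjusted p = 0.0138). The call was lost without flox replicate 1 (limma adjusted p = 0.0652) and without flox replicate 2 (limma adjusted p = 0.0574), while the change stayed between 0.81 and 1.14 whichever heart was left out.

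Serpina3n (ENSMUSG00000021091, chr12:104406729-104414329, plus strand) is a secreted mouse relative of human antichymotrypsin that rises in acute-phase responses downstream of STAT3. Its level was 14.7, 3.33 and 4.25 FPKM in CKO hearts, against 0.208, 0.732 and 0.551 FPKM in flox hearts. Each CKO heart was at least 4.55-fold above the highest flox heart, and CKO replicate 1 was far above the other CKO hearts.

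The mean of Serpina3n was 7.44 ± 6.34 FPKM in CKO hearts and 0.497 ± 0.266 FPKM in flox hearts (SD, n = 3 each), a 15.0-fold ratio that became 7.63-fold without CKO replicate 1. Behind its flox levels stood 6, 23 and 19 reads in replicates 1, 2 and 3, so the size of the ratio is imprecise. The log2 change was 2.26 ± 0.45 (SE, limma adjusted p = 0.0207), and 1.69 ± 0.20 without CKO replicate 1 (limma adjusted p = 0.0125). Only its CKO hearts brought the gene to the mean of 1 FPKM needed for the test, so these p-values are no support for the rise. With no such filter it was not called (limma adjusted p = 0.0756). The call was lost without flox replicate 1 (limma adjusted p = 0.0780) and without flox replicate 2 (limma adjusted p = 0.0612). Its RefSeq promoter window held no TTCNNNGAA match, which says only that these letters are not in that window.

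Serping1 (ENSMUSG00000023224, chr2:84765387-84775444, minus strand), the C1 inhibitor that blocks the first proteases of the complement cascade and plasma kallikrein, did not separate the groups. Its level was 43.9, 25.5 and 35.9 FPKM in CKO hearts, against 32.3, 31.3 and 22.6 FPKM in flox hearts. The log2 change was 0.26 ± 0.23 (SE, limma adjusted p = 0.456), with an interval from −0.27 to 0.79, and 0.09 ± 0.21 without CKO replicate 1.

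Of the serpins that do not act as protease inhibitors, Serpinh1 held the highest level of the set. Serpinf1 ranked 3 of 8 in CKO hearts and 4 of 8 in flox hearts. Serpinh1 (ENSMUSG00000070436, chr7:99345376-99353239, minus strand), which binds procollagen during its folding, was at 313, 248 and 257 FPKM in CKO hearts, against 197, 181 and 217 FPKM in flox hearts. It made up 68.2% to 77.5% of the summed FPKM of the 8 genes in CKO hearts and 73.5% to 81.4% in flox hearts. The groups did not overlap.

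The mean of Serpinh1 was 272.5 ± 35.1 FPKM in CKO hearts and 198 ± 17.8 FPKM in flox hearts (SD, n = 3 each), a 1.37-fold ratio. The log2 change of 0.45 ± 0.15 was not called (SE, limma adjusted p = 0.0889), with an interval from 0.10 to 0.81, and was 0.35 ± 0.12 without CKO replicate 1. It passed the threshold under scaling to TPM, quantile normalization and scaling by total counts, with log2 changes from 0.50 to 0.60, where TPM and total counts also moved the median of all genes by 0.13 and 0.11.

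Serpinf1 (ENSMUSG00000000753, chr11:75409769-75422701, minus strand) varied widely among hearts of the same genotype. Its level was 36.2, 11.04 and 22.4 FPKM in CKO hearts, against 9.24, 14.0 and 5.76 FPKM in flox hearts. CKO replicate 2 lay below flox replicate 2, so the groups overlapped. The log2 change of 1.11 ± 0.43 was not called (SE, limma adjusted p = 0.126), was 0.73 ± 0.40 without CKO replicate 1, and was called only without CKO replicate 2, at 1.54 (limma adjusted p = 0.0370).

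**Figure D3:**
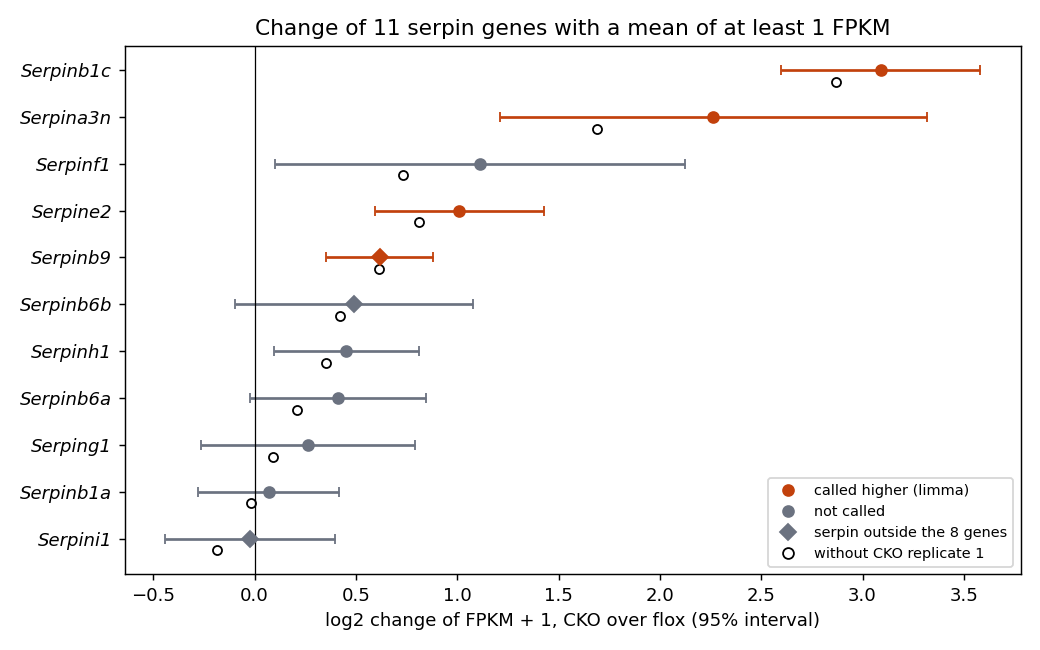
The log2 change of FPKM + 1, CKO over flox (horizontal axis), of 11 serpin genes with a mean of at least 1 FPKM, with 95% intervals from the limma fit; orange marks genes called higher, diamonds genes outside the set of 8, and open circles the change without CKO replicate 1. Leaving out CKO replicate 1 lowers Serpina3n from 2.26 to 1.69, Serpinf1 from 1.11 to 0.73 and Serpinb1c from 3.09 to 2.87. Serpinb1c chose the set, so its call is no support.

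In the order of levels per length, Serpinh1 was highest in both groups and Serping1 came next. CKO hearts then ran Serpinf1, Serpinb6a, Serpinb1c, Serpine2, Serpina3n and Serpinb1a, and flox hearts Serpinb6a, Serpinf1, Serpine2, Serpinb1a, Serpina3n and Serpinb1c. Serpinb1c thus ranked 5 of 8 in CKO hearts and 8 of 8 in flox hearts. In CKO hearts the per-heart ranges of neighbours overlapped, except that Serpinh1 lay above Serping1 and Serpinb6a above Serpinb1c. In flox hearts only Serpinb6a with Serpinf1, and Serpina3n with Serpinb1c, overlapped.

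Outside the set, 60 rows carried serpin names. Of these, 4 were tested, 30 were above 0 with a mean under 1 FPKM, and 26 were at 0 in every heart. Of the 4 tested, 2 were called higher and none lower, beside 6.93% and 7.19% over all tested genes. So few genes give no share for the family. Serpinb9, an inhibitor of granzyme B, was at 7.80, 7.66 and 7.79 FPKM in CKO hearts, against 5.32, 4.63 and 4.23 FPKM in flox hearts. Its log2 change was 0.62 ± 0.11 (SE, limma adjusted p = 0.0162) and 0.61 without CKO replicate 1 (limma adjusted p = 0.0282). The call was lost without CKO replicate 3, flox replicate 1 or flox replicate 2, with limma adjusted p reaching 0.0713. Serpinb6b averaged 18.8 ± 2.43 FPKM in CKO hearts and 13.6 ± 4.72 FPKM in flox hearts, and Serpini1 (neuroserpin, an inhibitor of tissue plasminogen activator) 1.46 ± 0.517 FPKM in CKO hearts and 1.47 ± 0.179 FPKM in flox hearts (SD, n = 3 each); neither was called (limma adjusted p = 0.226 and 0.944).

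Among the 30 low serpin rows, 19 had their highest value in CKO replicate 1, and the share over all low genes was not counted. The Serpina1 genes, which encode the liver's alpha-1 antitrypsin, summed to 7.48 FPKM in that heart and to no more than 0.183 FPKM in any other. Serpina3k, another liver serpin, was at 3.34 FPKM in CKO replicate 1 and at 0 in the other hearts. Serpina3g, the low row with the highest mean, had another pattern, with 0.540, 2.60 and 1.17 FPKM in CKO replicates 1, 2 and 3, against 0.238, 0.125 and 0.341 FPKM in flox replicates 1, 2 and 3.

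**Figure D4:**
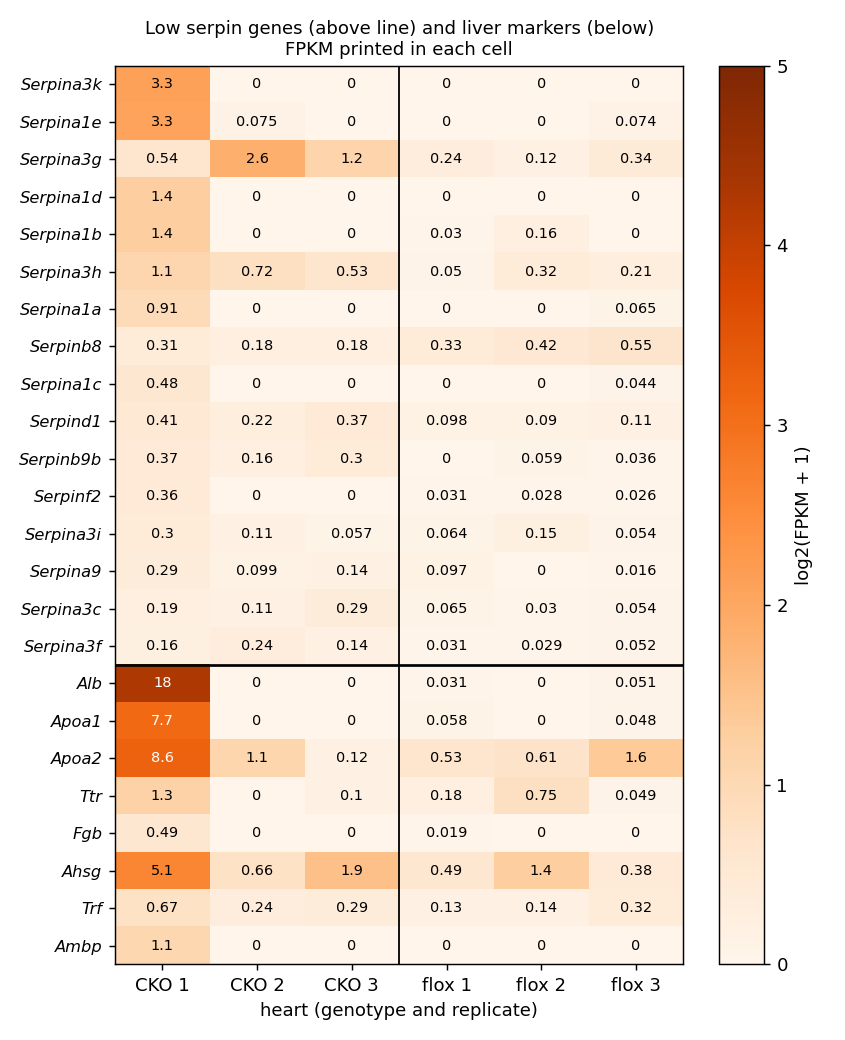
FPKM in each heart (columns, CKO left of flox; number in each cell, colour on a log2(FPKM + 1) scale) of the 16 low serpin genes with the highest value in any heart (above the line) and of 8 hepatocyte markers that are not serpins (below it). Liver markers and the Serpina1 genes stand out in CKO replicate 1, while Serpina3g is highest in CKO replicates 2 and 3.

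Genes listed as possible targets or partners of serpins were counted in 7 lists of 165 genes, of which 125 were tested, with 31 called higher and 3 called lower. Over all tested genes 6.93% were called higher and 7.19% lower, with a median log2 change of −0.00, and the list counts here and below stand beside those shares; no list was tested against other genes. Of 16 tested proteases listed as possible serpin targets, 1 was called higher and none lower, a share near that over all genes. Their median log2 change was 0.11. Whether the serpins described here inhibit each of them was not tested. The called gene was Prss23, a secreted serine protease, at 6.21 ± 2.63 FPKM in CKO hearts and 2.07 ± 0.480 FPKM in flox hearts (SD, n = 3 each), with a change of 1.18 ± 0.25 on the log2 scale (SE, limma adjusted p = 0.0244). Without CKO replicate 1 it remained called, at 0.90, and the call was lost without CKO replicate 3 or any flox heart, with limma adjusted p reaching 0.0850.

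In the plasminogen and serpin-clearance list, which belongs to the targets of Serpine2, 4 of 20 tested genes were called higher and 1 lower, with a median of 0.28. F2r, the thrombin receptor PAR1, averaged 39.4 ± 4.62 FPKM in CKO hearts and 19.4 ± 1.35 FPKM in flox hearts (SD, n = 3 each), a change of 0.98 ± 0.13 on the log2 scale (SE, limma adjusted p = 0.00705). It remained called whichever heart was left out. Anxa2, a cell-surface plasminogen receptor subunit, changed by 1.11 ± 0.30 (SE, limma adjusted p = 0.0495), a call lost with any heart but flox replicate 3 left out (limma adjusted p up to 0.166). Vtn, vitronectin, an adhesive glycoprotein of plasma and matrix, averaged 6.66 ± 0.837 FPKM in CKO hearts and 17.0 ± 5.67 FPKM in flox hearts, with a change of −1.18 ± 0.25 on the log2 scale (SE, limma adjusted p = 0.0234); it is also a pericyte marker here, and the call was lost without CKO replicate 2 or 3 or flox replicate 1 or 2 (limma adjusted p up to 0.0862).

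In the complement list, around Serping1, 2 of 15 tested genes were called higher and 1 lower, with a median of 0.46. Among these were C4b, a substrate of the protease that Serping1 blocks (log2 change 1.17 ± 0.28, SE, limma adjusted p = 0.0343) and Cd59a, which blocks the membrane attack complex (−1.06 ± 0.20, SE, limma adjusted p = 0.0171). C4b averaged 2.10 ± 0.980 FPKM in CKO hearts and 0.361 ± 0.353 FPKM in flox hearts (SD, n = 3 each). Only its CKO hearts brought C4b to the mean of 1 FPKM needed for the test. Without CKO replicate 1, 1 gene of the list was called. The call of C4b was lost with any heart but CKO replicate 2 left out (limma adjusted p up to 0.117). That of Cd59a was lost without CKO replicate 3, flox replicate 1 or flox replicate 2 (limma adjusted p up to 0.0711).

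The collagen pathway is the one served by Serpinh1. Of 38 tested genes for collagen folding, modification and secretion other than Serpinh1, 15 were called higher and none lower, beside 6.93% and 7.19% over all tested genes, with a median of 0.44, and 14 genes of the list were called without CKO replicate 1. Lox, which crosslinks collagen, averaged 29.2 ± 6.56 FPKM in CKO hearts and 5.97 ± 1.08 FPKM in flox hearts (SD, n = 3 each), a change of 2.10 ± 0.19 on the log2 scale (SE, limma adjusted p = 0.00247). P3h2, a prolyl hydroxylase, changed by 1.93 ± 0.20 (SE, limma adjusted p = 0.00312), and Plod2, a lysyl hydroxylase, by 1.68 ± 0.13 (SE, limma adjusted p = 0.00172). These 3 remained called whichever heart was left out.

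Of 16 collagens listed as possible cargo of Serpinh1, 6 were called higher and none lower, with a median of 0.42, and 6 were called without CKO replicate 1. Whether Serpinh1 binds each of them was not tested. Col8a1 averaged 35.6 ± 12.5 FPKM in CKO hearts and 3.89 ± 0.361 FPKM in flox hearts (SD, n = 3 each), a change of 2.86 ± 0.23 on the log2 scale (SE, limma adjusted p = 0.00172). Col12a1 changed by 2.29 ± 0.18 (SE, limma adjusted p = 0.00172) and Col5a2 by 1.18 ± 0.18 (SE, limma adjusted p = 0.00922). Col12a1 averaged 6.45 ± 1.21 FPKM in CKO hearts and 0.526 ± 0.249 FPKM in flox hearts (SD, n = 3 each). Only its CKO hearts brought Col12a1 to the mean of 1 FPKM needed for the test.

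Fibroblast markers were counted beside these genes. Their list includes Col1a1, Col1a2 and Col3a1, themselves fibrillar collagens, so it is not independent of the collagen values. The 12 fibroblast markers summed to 1267 to 1670 FPKM in CKO hearts and 862 to 1124 FPKM in flox hearts. Of these 12, 5 were called higher, 4 without CKO replicate 1, and 7 were not called. Postn, periostin, changed by 1.71 ± 0.22 (SE, limma adjusted p = 0.00603), Mfap5 by 1.39 ± 0.34 (SE, limma adjusted p = 0.0362) and Tcf21 by 1.01 ± 0.20 (SE, limma adjusted p = 0.0212). The call of Postn held whichever heart was left out. That of Tcf21 was lost without flox replicate 1 or 2 (limma adjusted p up to 0.0857), and that of Mfap5 with any heart but CKO replicate 2 left out (limma adjusted p up to 0.118). In whole hearts, more cells of a type and more RNA per cell cannot be told apart. The part of fibroblast number in the levels of Serpinh1, Serpinf1 and Serpine2 was not tested.

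In the acute-phase and STAT3 list, which goes with Serpina3n, 2 of 17 tested genes were called higher and 1 lower, with a median of 0.47, and 4 were called without CKO replicate 1. Cp, ceruloplasmin, changed by 1.22 ± 0.16 (SE, limma adjusted p = 0.00655) and Osmr, the oncostatin M receptor, by 0.73 ± 0.14 (SE, limma adjusted p = 0.0168). Lrg1, a secreted acute-phase glycoprotein, went the other way, at 4.36 ± 2.75 FPKM in CKO hearts and 17.1 ± 5.28 FPKM in flox hearts (SD, n = 3 each), a change of −1.84 ± 0.39 on the log2 scale (SE, limma adjusted p = 0.0244). The calls of Osmr and Lrg1 were lost without CKO replicate 3, flox replicate 1 or flox replicate 2, with limma adjusted p reaching 0.0711 and 0.0901, and that of Cp held throughout. Of 8 receptors and partners of Serpinf1, 1 was called higher and none lower, with a median of −0.32. It was Rpsa, a ribosomal protein that also serves as the laminin receptor, with a change of 1.48 ± 0.21 on the log2 scale (SE, limma adjusted p = 0.00797).

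**Figure D5:**
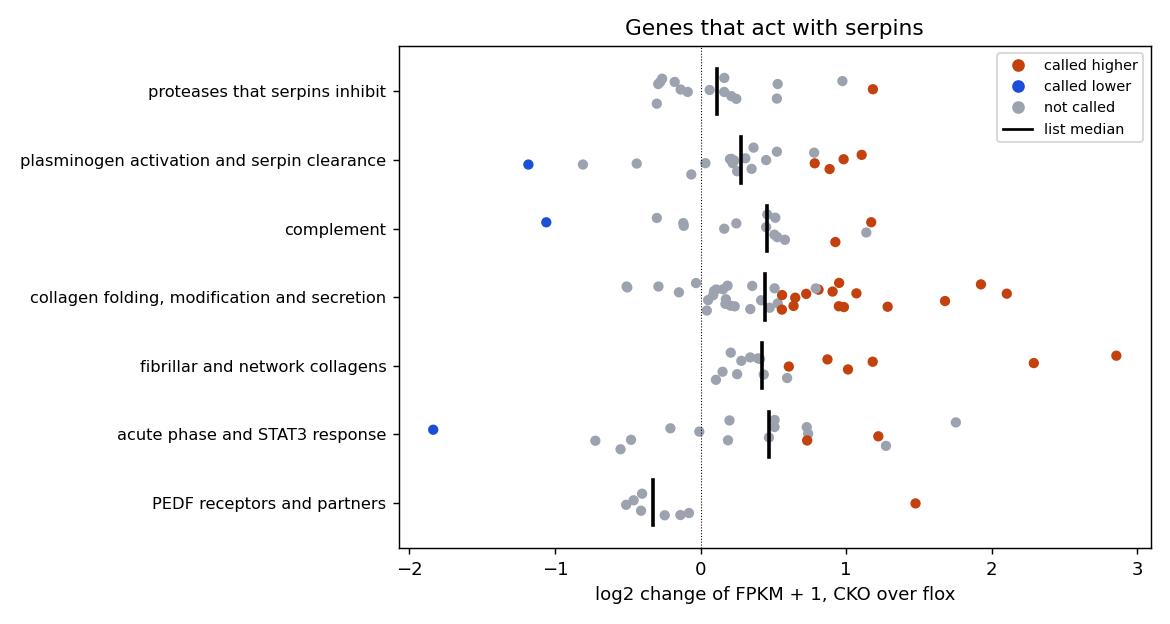
The log2 change of FPKM + 1, CKO over flox (horizontal axis), of the tested genes in 7 lists of serpin targets and partners; each point is a gene, orange called higher, blue called lower and grey not called, and black bars are list medians. Of 38 genes for collagen folding 15 are called higher, and of 16 proteases listed as possible targets 1 is, beside 6.93% of all tested genes. The lists were not tested against each other.

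Markers of other cell types gave these values beside the serpins. The 12 macrophage markers summed to 150 to 259 FPKM in CKO hearts and 122 to 139 FPKM in flox hearts, with only Cd68 called, higher at 0.65 ± 0.16 (SE, limma adjusted p = 0.0346) a call lost without CKO replicate 1 or 3 or flox replicate 1 or 2 (limma adjusted p up to 0.133). The 10 endothelial markers summed to 502 to 614 FPKM in CKO hearts and 604 to 664 FPKM in flox hearts with none called, and the most abundant, Fabp4, averaged 123 ± 16.8 FPKM in CKO hearts and 124 ± 8.87 FPKM in flox hearts (SD, n = 3 each). The 11 smooth muscle and pericyte markers summed to 1069 to 1612 FPKM in CKO hearts and 974 to 1200 FPKM in flox hearts. Vtn and Abcc9 were called lower (−1.27 ± 0.27 for Abcc9, SE, limma adjusted p = 0.0255, lost without CKO replicate 3 or flox replicate 1 or 2). This list includes Des and Abcc9, and whole-heart levels do not show which cells made their RNA. Neither the sum nor the fall of Abcc9 can therefore be read as a smooth muscle or pericyte value.

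The 10 mesothelial markers summed to 26.9 FPKM in CKO replicate 1, 6.97 and 9.74 FPKM in CKO replicates 2 and 3, and 4.18 to 8.44 FPKM in flox hearts; none of 3 tested was called, and Krt18 averaged 8.02 ± 9.19 FPKM in CKO hearts and 0.891 ± 0.498 FPKM in flox hearts (SD, n = 3 each). The 10 keratinocyte and mast cell markers summed to 6.59 to 8.97 FPKM in CKO hearts and 8.91 to 9.62 FPKM in flox hearts, with none of 5 tested called, Kit being the most abundant. None of 4 tested hepatocyte markers was called. Of 12 cardiomyocyte markers, 6 were called lower, 3 of the list without CKO replicate 1, led by Atp2a2 (−1.34 ± 0.27, SE, limma adjusted p = 0.0207), Tnnt2 (−1.13 ± 0.21, SE, limma adjusted p = 0.0168) and Pln (−1.09 ± 0.23, SE, limma adjusted p = 0.0256). Each of these 3 calls was lost without flox replicate 1 or 2, those of Tnnt2 and Pln also without CKO replicate 3, and that of Pln without CKO replicate 1, with limma adjusted p reaching 0.0835, 0.0762 and 0.105 in the order named. The part of these markers in the serpin levels was not tested.

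The genes most like each serpin across the 6 hearts were found by the root mean square difference of centred log2(FPKM + 1) over 10815 protein-coding genes, as a description. For Serpinb1c they were Col8a1 at 0.210, Phlda3 (a PH-domain protein induced by p53) at 0.215 and Ass1 (argininosuccinate synthase) at 0.291. Phlda3 stood at 204, 112 and 129 FPKM in CKO hearts, against 17.5, 20.4 and 26.4 FPKM in flox hearts. Ass1 stood at 11.5, 5.07 and 7.48 FPKM in CKO hearts, against 0.178, 0.544 and 0.149 FPKM in flox hearts. All 3 were, like Serpinb1c, highest in CKO replicate 1, which a search for the same pattern favours, so nothing is read from it.

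For the other serpins the nearest gene was Rpl9 for Serpine2 (0.0271), Shisa4 for Serpina3n (0.219), Ptx3 for Serpinf1 (0.200), Rnase4 for Serping1 (0.0706), Crcp for Serpinh1 (0.0312), Tmem199 for Serpinb6a (0.0311) and Ppih for Serpinb1a (0.0334). Ptx3, a secreted pentraxin, stood at 4.64, 0.703 and 2.26 FPKM in CKO hearts, against 0.373, 1.27 and 0.379 FPKM in flox hearts. Its peak in CKO replicate 1, shared with Serpinf1, is likewise favoured by the search. A small difference is easier to reach for a gene that changes little.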

How the data were processed

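The authors deposited FPKM per gene and heart with gene length and position; the submitters' processing notes name the build GRCm38, alignment software HISAT2 2.0.5, the read counter featureCounts 1.5.0-p3, CASAVA, and also DESeq2 1.20.0. Per the labels' protocols, libraries were poly-T selected and read as paired ends of 150 bases; whether strand was kept is not stated there. FPKM times length gave whole read counts for 100% of values within a tolerance of 0.01, and the deposited FPKM were already scaled by median-ratio size factors (0.893 to 1.07). Counts cover counting error only.

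Tests ran on log2(deposited FPKM + 1), a log2 scale, for genes with a mean of at least 1 FPKM, with limma 3.58.1 (trend; R 4.3.3), two-sided, Benjamini-Hochberg adjusted over all 12469 genes. With 3 hearts in each group, the comparison cannot give an exact permutation p below 0.1. The procedure was tested on simulated data. Members and lists were chosen with earlier results of these data known. Named genes are all members, other serpins of at least 1 FPKM, the highest low serpin, up to 3 called genes of largest change per list (or the most abundant where none was called), and the genes of most similar pattern (3 for Serpinb1c, 1 for each other). Lists held 254 symbols beside the members, of which 252 were found. Coding sequences came from GENCODE M21 with 99.8% of identifiers matched, and promoters from RefSeq GRCm38.p6. Python 3.11.15 made the tables and figures. The results of a few genes that the rule takes are not reported here.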

Additional observations from a re-analysis of the deposited data

How the results depend on the processing

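The 8 serpins kept the direction of their change under all alternatives that tested them (pseudocounts of 0.1 and 0.5, no filter, a minimum of 5 FPKM, TPM, quantile normalization, scaling by total counts, voom on recovered counts, no trend, the replicate block and each heart left out), except Serpinb1a at −0.019 without CKO replicate 1 and −0.0061 without flox replicate 2. A minimum of 5 FPKM left no value for Serpinb1a, Serpinb1c and Serpina3n. TPM and total-count scaling moved the median of all genes by 0.13 and 0.11 on the log2 scale, and 69.0% and 66.4% of called genes were then higher, against 49.1%. Without a filter limma called 316 genes higher and 325 lower, 1 other serpin and 17 partner genes, and lost Serpine2 (1.01, limma adjusted p = 0.0527) and Serpina3n (2.26, limma adjusted p = 0.0756); more genes were tested there. TPM called 1443 genes higher, and voom 907 higher and 986 lower. Serpinh1 was called with TPM (0.60, limma adjusted p = 0.0337), quantile normalization (0.50, limma adjusted p = 0.0314) and total counts (0.59, limma adjusted p = 0.0487). Relative to the median shift the TPM and total-count values are close to the 0.45 of the deposited scale.

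The replicate numbers did not pair the hearts: residuals of same-numbered hearts correlated at −0.28, −0.14 and −0.19, and no heart correlated best with its own number. With the replicate block, 278 genes were called higher and 263 lower, 0 other serpins and 15 partner genes, and Serpine2 (1.01, limma adjusted p = 0.0546) and Serpina3n (2.26, limma adjusted p = 0.0591) were not called. Leaving out each heart in turn gave 193 to 960 genes called higher and 171 to 844 lower, 0 to 2 other serpins and 12 to 37 partner genes. The log2 change then ranged from 2.87 to 3.21 for Serpinb1c, 0.81 to 1.14 for Serpine2, 1.69 to 2.62 for Serpina3n, 0.73 to 1.54 for Serpinf1, 0.35 to 0.52 for Serpinh1, 0.21 to 0.55 for Serpinb6a, 0.09 to 0.47 for Serping1 and −0.019 to 0.19 for Serpinb1a. Serpini1 changed sign with TPM (0.071) and total counts (0.058), and ranged from −0.19 to 0.10 over hearts left out. The cause of these changes was not tested. A few reads set the flox levels of Serpinb1c, so the size of its ratio is imprecise.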
